A study of Mus musculus with 6 samples.

Results

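The transcripts described are 9 members of the MHC class I pathway in mouse spleen: B2m, Tap1, Tap2, Tapbp, Erap1, Nlrc5, H2-K1, H2-M3 and H2-T23. The members were taken by symbol, each from the probe set that the platform annotation assigns to that gene alone, and all 9 of 9 were found among the 22180 genes measured. The data are 6 Affymetrix arrays, 1 per spleen, of mice aged 1 year. The 3 DX2 mice had the genotype CAG-rtTA with TRE DX2/+, in which the activator rtTA, driven by the broadly active CAG promoter, turns on a transgene for AIMP2-DX2, a shortened splice form of the tRNA synthetase scaffold AIMP2. The 3 control mice were littermates with the TRE DX2/+ transgene and no rtTA. Mice of both groups received doxycycline pellets (6.25 mg/kg) from the age of 8 weeks, so doxycycline was common to the groups, while rtTA was present in DX2 mice only and its effect cannot be told apart from that of DX2. The labels call the samples biological replicates. The induced gene gave no check of the groups, since Aimp2 has no probe set of its own on this array. The comparison asks whether these transcripts differed between DX2 and control spleens.

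MHC class I molecules show peptides from inside the cell to CD8 T cells and natural killer cells. A heavy chain pairs with beta-2-microglobulin (B2m) in the endoplasmic reticulum. The transporter made of Tap1 and Tap2 brings in peptides cut by the proteasome, tapasin (Tapbp) holds the empty molecule at the transporter, and the aminopeptidase Erap1 trims the peptides. Nlrc5 is the transactivator of class I genes. It is recruited to a promoter module that includes an X2 box and a Y box, and interferon gamma raises the level of most genes of the pathway. Most nucleated cells of the spleen carry class I molecules.

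Promoters of 4 members, the light chain and the 3 heavy chains, are shown first so that the letters of the known class I promoter elements can be compared between them. RefSeq's table (GRCm38.p6) held a promoter for 7 of the 9 members, all except Tap2 and Nlrc5, and the 250 bases before the most upstream listed start were searched. The capitals mark matches to the X2 or CRE core TGACG, the Y box CCAAT, the canonical interferon-stimulated response element (GAAA, any 2 bases, GAAA), the class I form of that element GAANNGAAA, the NF-kB core (GGG, any 2 bases, TT, any base, CC) and the GAS core TTCNNNGAA, each on either strand. The windows lie on chromosome 17 at chr17:34000348-34000597 (minus strand) for H2-K1, chr17:37269984-37270233 (plus strand) for H2-M3 and chr17:36032702-36032951 (minus strand) for H2-T23, and on chromosome 2 at chr2:122147437-122147686 (plus strand) for B2m.
H2-K1: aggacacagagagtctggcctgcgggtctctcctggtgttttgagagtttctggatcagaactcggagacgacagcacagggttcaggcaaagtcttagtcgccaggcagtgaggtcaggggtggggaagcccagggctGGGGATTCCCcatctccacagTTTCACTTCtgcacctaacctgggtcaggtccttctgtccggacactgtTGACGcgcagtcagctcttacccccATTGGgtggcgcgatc
H2-M3: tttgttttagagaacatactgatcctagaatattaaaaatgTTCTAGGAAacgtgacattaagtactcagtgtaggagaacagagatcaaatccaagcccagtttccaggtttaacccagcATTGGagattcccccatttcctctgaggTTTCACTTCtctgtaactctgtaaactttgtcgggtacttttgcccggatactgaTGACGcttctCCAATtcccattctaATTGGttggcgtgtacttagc
H2-T23: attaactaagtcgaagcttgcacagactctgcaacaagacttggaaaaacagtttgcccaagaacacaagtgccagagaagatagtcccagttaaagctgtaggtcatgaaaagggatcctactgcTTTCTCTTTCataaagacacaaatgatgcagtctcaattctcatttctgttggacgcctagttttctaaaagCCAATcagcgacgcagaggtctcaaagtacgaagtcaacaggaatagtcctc
B2m: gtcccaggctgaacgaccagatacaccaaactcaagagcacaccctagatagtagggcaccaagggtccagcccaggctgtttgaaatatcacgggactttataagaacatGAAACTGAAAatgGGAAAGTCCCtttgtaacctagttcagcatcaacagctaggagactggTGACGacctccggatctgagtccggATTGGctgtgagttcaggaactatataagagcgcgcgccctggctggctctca

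The X2 core was found in 4 of the 7 member windows (B2m, H2-K1, H2-M3 and Tap1), against 17.8% of 27025 mouse promoter windows of the same length. A Y box was found in 6 of 7, all but Erap1, against 34.5% of windows. Both were present somewhere in the windows of B2m, H2-K1, H2-M3 and Tap1, against 6.39% of windows. In Tap1 the Y box lay 222 to 218 bases before the start, far upstream of the X2 core (86 to 82). The canonical interferon element was found in B2m and H2-T23 (3.05% of windows) and the class I form in H2-K1 and H2-M3 (6.35%). The NF-kB core was found in B2m and H2-K1 (4.02%) and the GAS core in H2-M3 (7.14%). No match overlapped another. In H2-K1 and H2-M3 the class I interferon element, the X2 core and a Y box follow each other in the same order, with the X2 core 41 to 37 and 46 to 42 bases before the start. The motif letters were chosen with these promoter sequences in view, so the shares over all windows are not an independent comparison. A match describes letters in this window and not a bound site.

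The groups did not differ in any of the 9 members by the test used, and the members' values were set apart by one spleen. None of the 9 passed limma's test over all genes (adjusted p under 0.05, Benjamini-Hochberg), where 0.316% of genes passed, 0.0361% in the higher and 0.28% in the lower direction. None of the 9 had an unadjusted p under 0.05, against 16% of genes, 8.13% in the higher and 7.82% in the lower direction. The DX2 and control arrays overlapped for all 9, while the groups did not overlap for 22% of genes. In DX2 1 all 9 members stood at their lowest value of the 6 arrays, which was true of 20.8% of all genes, and thus below all 3 controls, which was true of 32.3%. DX2 2 held the highest value for 7 of the 9, against 22.9% of genes. The members share cells and regulators, so their counts are not 9 independent observations. In whole spleen, fewer cells of a type and less RNA per cell cannot be told apart.

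**Figure D1:**
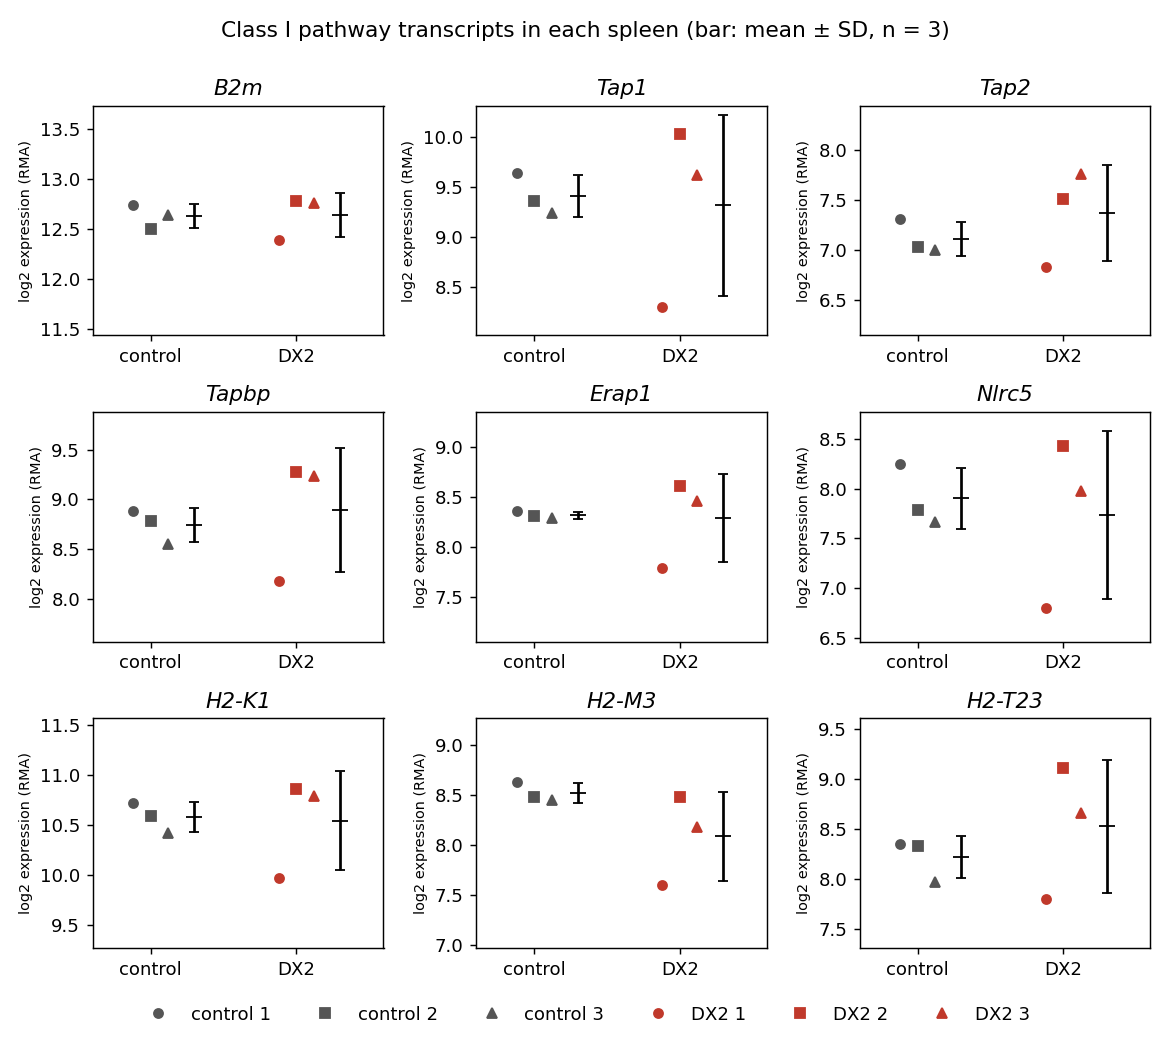
Level of each of the 9 class I transcripts (vertical axis, log2 RMA value, every panel spanning the same range) in the 3 control spleens (grey) and the 3 DX2 spleens (red), with the mean and SD of each group as a bar (n = 3). The circle of DX2 1 is the lowest point in every panel, and the DX2 spread exceeds the control spread for all 9 genes.

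Nlrc5, the transactivator, had the second widest DX2 spread of the members, after Tap1. Its log2 value was 8.25, 7.79 and 7.66 in controls 1, 2 and 3, and 6.80, 8.43 and 7.98 in DX2 1, 2 and 3. DX2 1 lay below every control, DX2 2 above every control and DX2 3 among them. The group means were 7.90 ± 0.31 and 7.74 ± 0.84 (SD, n = 3 each), a difference of -0.16 (SE 0.39, 95% interval -1.08 to 0.75, limma adjusted p = 0.880). The interval is wide on both sides of 0, so these arrays do not show that the groups are alike.

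B2m, the light chain shared by all class I molecules, was the member with the lowest DX2 spread (SD 0.22, against 0.12 in control). It read 12.74, 12.50 and 12.64 in controls 1, 2 and 3 and 12.39, 12.78 and 12.76 in DX2 1, 2 and 3, with the groups overlapping. The difference was 0.02 (SE 0.14, 95% interval -0.31 to 0.35, limma adjusted p = 0.969), the narrowest interval of the 9.

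The heavy chains differed from one another in how DX2 2 and DX2 3 stood to the controls. H2-K1, a classical heavy chain that presents peptides to CD8 T cells, read 10.72, 10.59 and 10.42 in controls 1, 2 and 3 and 9.97, 10.86 and 10.79 in DX2 1, 2 and 3. DX2 1 lay below all controls and the other DX2 spleens above all controls, and the means differed by -0.03 (SE 0.24, limma adjusted p = 0.963). H2-T23 encodes Qa-1, a nonclassical chain that shows class I leader peptides to the CD94 and NKG2A receptor. It read 8.35, 8.33 and 7.97 in the controls and 7.80, 9.11 and 8.66 in DX2 1, 2 and 3. The arrays stood in the same order as for H2-K1, and the difference of 0.31 (SE 0.31, limma adjusted p = 0.685) was the highest of the 9.

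H2-M3, a nonclassical chain that presents N-formylated peptides, had the lowest difference of the 9. Its log2 value was 8.63, 8.49 and 8.45 in controls 1, 2 and 3, and 7.61, 8.49 and 8.18 in DX2 1, 2 and 3. DX2 1 and DX2 3 lay below every control, and only DX2 2 reached the control range. The means were 8.52 ± 0.10 and 8.09 ± 0.45 (SD, n = 3 each), a difference of -0.43 (SE 0.21, 95% interval -0.93 to 0.07), which did not pass (limma adjusted p = 0.383). Class I heavy chains are a family of close copies, so a probe set assigned to 1 chain may read others too, and the values of H2-K1, H2-M3 and H2-T23 are uncertain to that extent.

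The peptide transporter subunits and tapasin followed the same split within the DX2 group. Tap1 read 9.64, 9.36 and 9.24 in controls 1, 2 and 3 and 8.30, 10.03 and 9.62 in DX2 1, 2 and 3, and had the widest DX2 spread of the members (SD 0.90 against 0.21 in control). Its DX2 values lay on both sides of the controls, with a difference of -0.10 (SE 0.40, limma adjusted p = 0.936). Tap2 read 7.31, 7.03 and 7.0004 in controls 1, 2 and 3 and 6.83, 7.51 and 7.76 in DX2 1, 2 and 3. It was the only member that was highest in DX2 3, and its difference was 0.25 (SE 0.24, limma adjusted p = 0.653). Tapbp read 8.89, 8.78 and 8.55 in the controls and 8.18, 9.27 and 9.23 in DX2 1, 2 and 3, with a difference of 0.15 (SE 0.29, limma adjusted p = 0.841). A second, dimmer Tapbp probe set gave nearly the same difference (0.16) but not the same pattern over arrays, since it read 5.92 in DX2 1 and 5.68 in DX2 2.

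Erap1 was nearly constant among controls and not among DX2 spleens. It read 8.35, 8.31 and 8.29 in controls 1, 2 and 3, a spread (SD) of 0.04, and 7.79, 8.61 and 8.46 in DX2 1, 2 and 3, a spread of 0.44. Every DX2 value lay outside the control range, on both sides of it, so that the means differed by only -0.03 (SE 0.21, limma adjusted p = 0.963).

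The members also shared a wider spread among DX2 than among control spleens. The DX2 SD exceeded the control SD for 9 of 9, against 58.6% of all genes, and for 8 of 9, all but B2m, the DX2 SD lay above the 90th percentile of genes. No test was made of the spread. Within the control group control 1 was the highest array for 9 of 9 members. The mean log2 value of the 9 members was 9.21, 9.02 and 8.91 in controls 1, 2 and 3, and 8.41, 9.45 and 9.27 in DX2 1, 2 and 3.

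Because DX2 1 stood apart, each difference was also taken without it. The median difference of the 9 was -0.03 with all arrays, near the median of 0.01 over all genes, with 4 members higher and 5 lower. Without DX2 1 the median was 0.30 and 8 of 9 were higher, all but H2-M3 (-0.19, SE 0.14). H2-T23 then differed by 0.67 (SE 0.19), Tap2 by 0.52 (SE 0.15) and Tapbp by 0.51 (SE 0.14), each with an unadjusted p under 0.05 in the higher direction, against 8.42% of genes, and none passed over all genes (limma adjusted p = 0.174, 0.186 and 0.167), where 0.0361% of genes passed. The remaining pair of DX2 spleens lay above all controls for 6 of 9 members, against 17.8% of genes. DX2 1 was left out after its values had been seen, and it was the lowest array for all 9 members. Leaving it out therefore raised every difference by construction, and these shares over all genes are not a like comparison. Without DX2 2 the median was -0.19, and without DX2 3 it was -0.12. With all 3 DX2 spleens kept, the median was also positive without control 1 (0.04) and with some other settings, such as array weights (0.06). The sign of the members' median, which was near 0 with all arrays, therefore depended on the arrays included and on the settings.

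**Figure D2:**
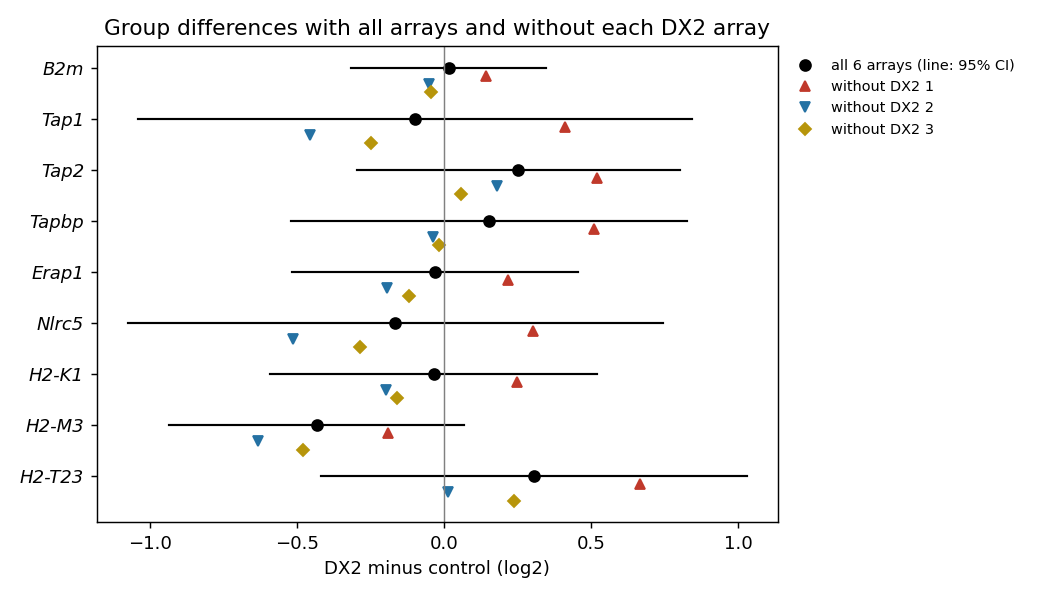
DX2 minus control difference of each member on the log2 scale (horizontal axis) with all 6 arrays (black, line the 95% interval) and without DX2 1 (red), DX2 2 (blue) or DX2 3 (yellow). All 9 intervals include 0. The red points lie to the right of the black ones for every member, which follows by construction because DX2 1 was the lowest array for each.

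Sex also differed between the spleens. By Xist and Y-linked transcripts 2 controls were female, and 1 control and all 3 DX2 spleens were male, which the labels do not give. No DX2 spleen was female, so a fit with a sex term in effect compares the DX2 spleens with control 3 alone, the only male control. The differences then ran from -0.36 for H2-M3 to 0.55 for H2-T23. With 1 control, this fit cannot separate sex from the variation between control spleens.

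To take out the array-to-array shift that the members share, each was also set against the mean of the other 8 on its own array. Each value then depends on the other members too, so the members are not independent on this scale. This scale was chosen after the values had been seen. On it H2-M3 was -0.65, -0.60 and -0.52 in controls 1, 2 and 3 and -0.90, -1.09 and -1.23 in DX2 1, 2 and 3. The groups did not overlap, and the means differed by -0.48. H2-T23 was -0.97, -0.78 and -1.06 in the controls and -0.68, -0.39 and -0.69 in DX2 1, 2 and 3, with no overlap and a difference of 0.35. Tapbp did not overlap either, with a smaller difference of 0.18. The 6 other members overlapped, and H2-K1 differed by only -0.04. For each of the 3 that did not overlap the exact permutation test over arrays gave p = 0.1 (two-sided), the smallest p that 3 arrays against 3 can give, so the design cannot pass 0.05 here. Over all genes 1.63% lay higher and 1.89% lower without overlap on this scale, but the scale subtracts a shift that the members share by construction, so this background is not a like comparison.

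**Figure D3:**
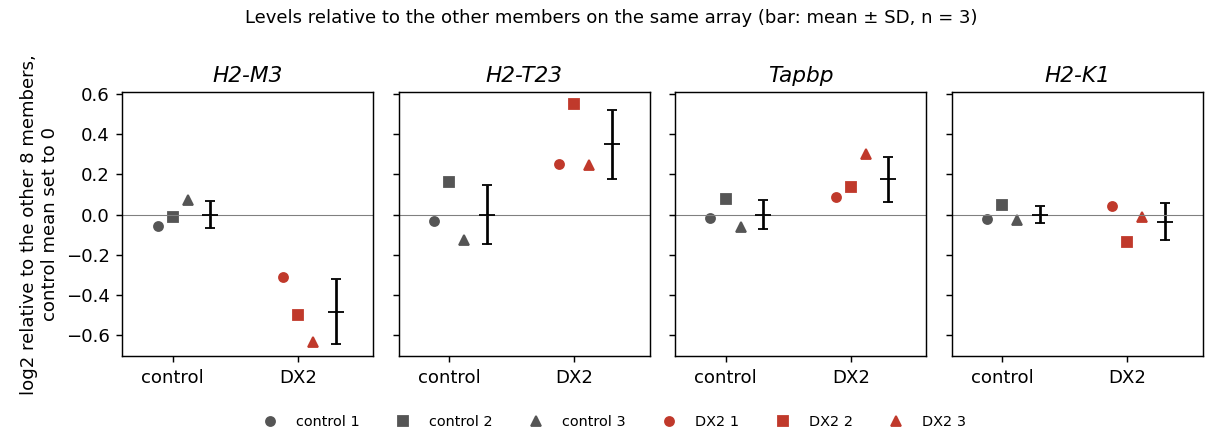
Level of H2-M3, H2-T23, Tapbp and H2-K1 relative to the mean of the other 8 members on the same array (vertical axis, log2, control mean set to 0) in control (grey) and DX2 (red) spleens, with mean and SD (n = 3). H2-M3 lies below and H2-T23 and Tapbp lie above the controls in all 3 DX2 spleens, while H2-K1 overlaps.

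Taken directly against each other, the nonclassical chains H2-T23 and H2-M3 separated the groups on every array. The log2 value of H2-T23 minus that of H2-M3 was -0.29, -0.16 and -0.48 in controls 1, 2 and 3 and 0.19, 0.62 and 0.48 in DX2 1, 2 and 3. The mean difference between the groups was 0.74. This pair was picked for having the highest and the lowest difference, so the value is a description and carries no test. The probe sets differ in how they bind, so only the change of this quantity between arrays can be read, not its sign.

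Several members tracked each other closely. Distance here is the mean absolute difference, over the 6 arrays, between the log2 profiles of 2 genes, each centred on its own mean. The nearest member to Tap1 was Nlrc5 and the reverse, at 0.07, and Tap1 minus Nlrc5 varied only between 1.39 and 1.64 over the 6 arrays. H2-K1 and Erap1 were nearest to each other, also at 0.07, and H2-K1 was the member closest to the mean profile of the 9 (0.04). H2-M3 was the farthest from that mean (0.21). Its nearest member was H2-K1 at 0.20. B2m was nearest to Erap1 (0.11), Tap2 and H2-T23 to Tapbp (0.12 each), and Tapbp to H2-K1 (0.11). Among genes outside the 9, the nearest to the mean profile were Tapbpl (0.03), Samhd1 (0.04), Scpep1 (0.05), Dhx58 (0.06) and Gpr157 (0.06). Tapbpl encodes TAPBPR, a tapasin relative that edits class I peptides, and it read 7.48, 7.34 and 7.26 in controls 1, 2 and 3 and 6.69, 7.75 and 7.52 in DX2 1, 2 and 3. With 22180 genes and 6 arrays some close profiles are found for any gene.

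The proteasome parts that cut class I peptides were lowest in DX2 1 for 4 of 6 genes and highest in DX2 2 for 5 of 6. All 6 of 6 listed genes (Psmb8, Psmb9, Psmb10, Psme1, Psme2 and Pomp) had a positive difference, with a median of 0.15, and none passed. The 3 with the smallest unadjusted p were the assembly factor Pomp (0.24, SE 0.14, limma adjusted p = 0.463), the catalytic subunit Psmb10 (0.25, SE 0.30, 0.736) and the activator subunit Psme2 (0.09, SE 0.13, 0.777). Pomp and Psme2 were not lowest in DX2 1, where they read 8.49 and 6.38. Psmb9 lies next to Tap1 and shares its promoter region with it. It read 8.71, 8.65 and 8.29 in controls 1, 2 and 3 and 7.47, 9.39 and 9.02 in DX2 1, 2 and 3, so DX2 1 was lowest and DX2 2 highest, as for Tap1. Without DX2 1 the median of the list was 0.52.

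The other listed loading factors of the endoplasmic reticulum, Tapbpl among them, averaged 9.03 in DX2 1, against 8.97 to 9.03 in control spleens. DX2 1 was the lowest array for 4 of the 9 on the list (Tapbpl, Sec61a1, Uggt1 and Ganab). Of 9 listed loading factors 7 were higher and 2 lower, with a median of 0.11 and none past the test. Calnexin (Canx), which folds new heavy chains, read 10.46, 10.56 and 10.46 in the controls and 10.98, 10.75 and 10.73 in DX2 1, 2 and 3, with DX2 1 highest (0.33, SE 0.11, limma adjusted p = 0.228). The disulfide isomerase Pdia3, a partner of tapasin, differed by 0.34 (SE 0.15, adjusted p = 0.313) and the chaperone Hspa5 by 0.34 (SE 0.15, adjusted p = 0.340). Canx, Pdia3 and the chaperone Calr lay above every control in all 3 DX2 spleens (3 of 9), as 10.7% of genes did. Of 6 peptidases that trim or destroy peptides 5 were higher (median 0.26), none past the test. Thop1 differed by 0.40 (SE 0.10, adjusted p = 0.124), the interferon-inducible aminopeptidase Lap3 by 1.04 (SE 0.36, adjusted p = 0.224) and Npepps by 0.25 (SE 0.11, adjusted p = 0.334).

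Other class I chains gave no common direction. Of 21 listed heavy chains 11 had a probe set of their own, and the other 10, H2-D1 among them, were not analysed here. Among the 11, 6 were higher and 5 lower (median 0.03), none past the test. H2-Q10 differed by -0.33 (SE 0.12, limma adjusted p = 0.237), H2-Q1 by 0.29 (SE 0.16, 0.445) and H2-Bl by -0.43 (SE 0.25, 0.457). H2-M2 read 10.42 in DX2 2 and between 7.08 and 8.21 on the 5 other arrays. Of 6 class I related chains 2 were higher and 4 lower (median -0.09). The iron regulator Hfe differed by 0.89 (SE 0.32, adjusted p = 0.241), the antibody receptor chain Fcgrt by 0.29 (SE 0.12, adjusted p = 0.313) and the lipid-presenting Cd1d1 by -0.29 (SE 0.18, adjusted p = 0.490). Hfe and Fcgrt lay above every control in all 3 DX2 spleens (2 of 6), as 10.7% of genes did. For Hfe the highest value was in DX2 1 (8.36).

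The transcription factors that act on class I promoters gave no common direction. Of 12 measured 4 were higher and 8 lower (median -0.09), none past the test. Rfx5, a DNA-binding subunit at the X box that class I and class II promoters share, read 8.35, 8.23 and 8.21 in the controls and 7.34, 7.95 and 7.71 in DX2 1, 2 and 3, below every control, as 11.2% of genes were (-0.60, SE 0.16, limma adjusted p = 0.150). Nfya, a subunit of the factor that binds the Y box, differed by 0.37 (SE 0.10, adjusted p = 0.150). Ciita, the class II counterpart of Nlrc5, differed by -0.76 (SE 0.29, adjusted p = 0.264). Ciita minus Nlrc5 was 1.02, 1.23 and 1.47 in controls 1, 2 and 3 and 0.89, 0.53 and 0.51 in DX2 1, 2 and 3, so the groups did not overlap, a pair chosen after the values were seen. Of the interferon gamma receptor pathway Jak1 (-0.28, SE 0.10, adjusted p = 0.217), Ifng (0.73, SE 0.52, adjusted p = 0.553) and Socs1 (0.29, SE 0.33, adjusted p = 0.723) had the smallest unadjusted p, with 3 of 6 higher, 3 lower and none past the test.

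MHC class II genes, which need Ciita, were set beside the class I members. All 9 measured class II genes, Ciita left out, had a negative difference (median -0.73), none past the test, and 4 lay below every control in all 3 DX2 spleens, as 11.2% of all genes did, while the 9 class I members had a median of -0.03 and 0 such genes. H2-Ob (-1.13, SE 0.22, limma adjusted p = 0.0834), H2-DMb1 (-1.02, SE 0.21, 0.0930) and H2-Eb2 (-1.04, SE 0.29, 0.150) had the smallest unadjusted p. Without DX2 1 the class II median was -0.34 and the class I median 0.30. The mean of the class II list was 9.77, 9.54 and 9.75 in controls 1, 2 and 3 and 8.37, 9.59 and 9.15 in DX2 1, 2 and 3. DX2 1 was the lowest array for all 9 class II genes, as for the 9 members. The difference between these lists was not tested.

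Interferon gamma induced genes were also low in DX2 1 and high in DX2 2, over a wider range than the members. The mean of 12 interferon gamma induced genes was 7.72, 7.29 and 7.13 in controls 1, 2 and 3 and 6.65, 8.98 and 8.26 in DX2 1, 2 and 3, a range of 2.33 against 1.05 for the members. DX2 1 was the lowest array for 9 of the 12 and DX2 2 the highest for all 12. Of the 12, 11 were higher (median 0.58) and none passed. The GTPases Igtp (0.89, SE 0.44, limma adjusted p = 0.375), Iigp1 (1.30, SE 0.67, 0.399) and Gbp7 (0.88, SE 0.47, 0.413) had the smallest unadjusted p. Ifng itself read 5.31, 4.76 and 4.76 in the controls and 4.68, 6.98 and 5.37 in DX2 1, 2 and 3. The 14 type I interferon stimulated genes had their highest mean in DX2 3 (7.64, against 7.62 in DX2 2 and 6.69 in DX2 1), and DX2 1 was the lowest array for 8 of 14. Of the 14, 11 were higher (median 0.48), none past the test, with Isg15 at 1.50 (SE 0.24, adjusted p = 0.0638), Ifih1 at 0.76 (SE 0.15, adjusted p = 0.0930) and Ddx58 at -0.59 (SE 0.21, adjusted p = 0.239). Unlike the members, Isg15 was above every control in DX2 1 too (7.98). The part of interferon in the members' values was not tested.

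**Figure D4:**
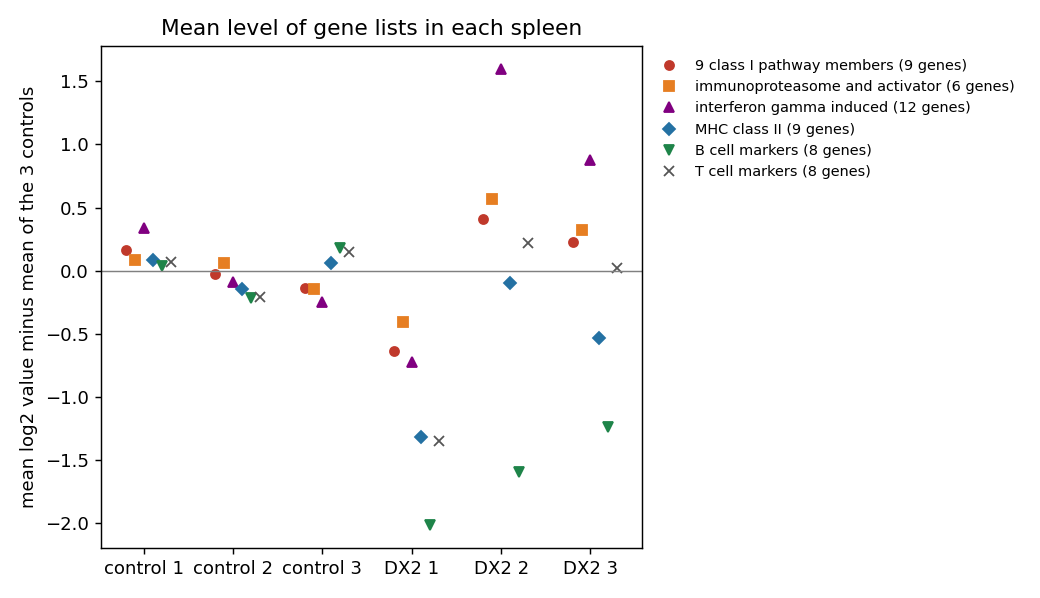
Mean log2 value of 6 gene lists in each spleen, minus the mean of the 3 controls (vertical axis). Points stand for the 9 members (red), the immunoproteasome and its activator (orange), interferon gamma induced genes (purple), MHC class II genes (blue), B cell markers (green) and T cell markers (grey crosses). The red, orange and purple points and the grey crosses are lowest in DX2 1 and highest in DX2 2. The B cell markers lie below the controls in all 3 DX2 spleens.

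Markers of spleen cell types moved with the arrays as well. The 8 measured B cell markers had means of 9.94 to 10.34 in control and 8.14 to 8.92 in DX2 spleens. Among them 3 of 8, Cr2, Cd79b and Fcer2a, fell (limma, over all genes), against 0.28% of all genes. These calls were lost with the replicate block (limma adjusted p = 0.174 to 0.188) and with centred arrays (0.0580 to 0.0704). They were also lost without any 1 array other than DX2 2, except that of Cr2 without DX2 1. The sex term, which leaves 1 male control to compare with, lost them too. In all, Cr2 and Cd79b passed in 8 of 16 refits each and Fcer2a in 6. The 8 T cell markers averaged 6.63 in DX2 1 and between 7.76 and 8.20 on the 5 other arrays, and DX2 1 was the lowest array for all 8. The mean of the T cell markers was highest in DX2 2, as for the members, though only 2 of the 8 markers were highest there. The 7 neutrophil markers averaged 9.43 in DX2 1 and at most 8.10 elsewhere, and 4 erythroid markers 6.54 to 8.26 in control spleens, 7.65 in DX2 2, 9.52 in DX2 3 and 9.81 in DX2 1. The 10 red pulp macrophage markers averaged 8.63 to 8.83 in control and 9.23 to 9.42 in DX2 spleens. Among them 1 of 10, Cd5l, rose, against 0.0361% of all genes. That call too was lost with the block (limma adjusted p = 0.174), centred arrays (0.0580) and the sex term. It was also lost without any 1 array other than DX2 2 (0.0629 to 0.195), where the adjusted p was 0.0365. Natural killer markers averaged 5.68 to 5.76 in control and 5.29 to 5.50 in DX2 spleens, dendritic cell markers 6.55 to 6.69 and 6.30 to 6.61, plasma cell markers 7.75 to 8.07 and 7.73 to 8.06, and stromal and endothelial markers 7.29 to 7.50 and 7.41 to 7.97. The part of cell makeup in the members' values was not tested.

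Receptors that read class I molecules, and relatives of such receptors, were listed and measured on the same arrays. Of 7 with a probe set of their own 2 were higher and 5 lower (median -0.05), none past the test. Klrd1 encodes CD94, a chain of the receptor for the H2-T23 product. It read 7.07, 7.37 and 7.65 in controls 1, 2 and 3 and 6.65, 6.52 and 6.50 in DX2 1, 2 and 3 (-0.81, SE 0.16, limma adjusted p = 0.0856). Klrd1 was the 1 of 7 that lay below every control in all 3 DX2 spleens, as 11.2% of genes did. Its partner Klrc1 differed by -0.03 (SE 0.19, adjusted p = 0.963). The inhibitory receptor Lilrb4a differed by 0.37 (SE 0.15, adjusted p = 0.295) and the CD8 coreceptor chain Cd8b1 by -0.47 (SE 0.33, adjusted p = 0.542).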

How the data were processed

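The deposited table holds 1 log2 value per probe set for each of 6 arrays, which the authors made with RMA per the submitters' processing notes. RMA subtracts background, brings the arrays to a common distribution and combines the probes of a set. Its version, software and annotation were not stated, and the log2 scale was inferred from the range (0.77 to 13.3). RMA can understate large differences. Precision is limited by the number of arrays.

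Of 41345 probe sets 23521 had 1 gene symbol, 1814 several and 16010 none. Each of 22180 genes was represented by its single-gene probe set of highest mean (1082 genes had more than 1). Group differences (DX2 minus control) were estimated with lmFit and eBayes of limma 3.58.1, run in R 4.3.3 with no covariate, and p-values were adjusted by Benjamini-Hochberg over all genes, with a threshold of 0.05. The median standard error was 0.14. This comparison was simulated 10 times on 22180 genes. The test called 82.8% of genes given a log2 change of 1 and 99.3% of genes given a change of 2. The changed genes were drawn at random from all genes, with noise independent between genes and arrays. These rates are therefore not rates for the members, whose standard errors reached 0.40 (Tap1) and which were all lowest in DX2 1. "Rose" and "fell" are used of genes that passed.

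The members and lists were chosen with earlier results of these data known. The genes named are all members, the 3 of smallest unadjusted p in each list with any that passed, the 5 genes nearest to the members' mean profile, and each member's nearest member. Other names were added after their values were seen. Motif letters were chosen with the promoter sequences in view. Alternatives were the replicate block, each array left out, a filter on the 40% dimmest genes, a variance trend, a robust prior, array weights, another quantile normalization, centred arrays, other uses of probe sets, a sex term and an adjusted p under 0.1.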

Additional observations from a re-analysis of the deposited data

How the results depend on the processing

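None of the 9 members passed under any of 17 alternatives to the settings used (limma), and the lowest adjusted p of a member in any fit was 0.126. Of 144 values of single members under 16 refits, 123 kept their sign. H2-M3 stayed negative (-0.63 to -0.19), and Tap2 (0.06 to 0.52) and H2-T23 (0.01 to 0.67) stayed positive, in all 16. The 21 sign changes were of differences near 0 or followed from leaving out a spleen. With array weights they were H2-K1 0.0783, Erap1 0.0395 and Tap1 0.0248, with centred arrays Erap1 0.0620 and H2-K1 0.0572, and with the sex term H2-K1 0.122, Tap1 0.0785, Nlrc5 0.0732 and Erap1 0.00038. With 1 array left out the ranges were -0.0508 (without DX2 2) to 0.144 (without DX2 1) for B2m, with -0.0467 without control 2 and -0.0424 without DX2 3. They were -0.456 to 0.411 for Tap1 (0.0177 without control 1), -0.511 to 0.303 for Nlrc5 (0.00985 without control 1), -0.192 to 0.220 for Erap1 and -0.195 to 0.250 for H2-K1 (0.0376 without control 1), each lowest without DX2 2 and highest without DX2 1. For Tapbp the range was -0.0349 to 0.512 (-0.0154 without DX2 3). Leaving out 1 array moved the median of the members between -0.19 and 0.30, and the other refits between -0.03 and 0.08. Centring arrays on their medians moved the median of all genes from 0.01 to 0.10.

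The count over all genes was 70 and depended on the setting: 547 with array weights, 394 at an adjusted p under 0.1, 125 without dim genes, 2 with centred arrays or the sex term, and 1 to 370 without 1 array. Replicate numbers gave no pairing, since same-numbered arrays correlated at -0.32, -0.14 and 0.07 in their deviations from the group means. With the replicate block 1 gene and 0 of the 9 members passed, with the same median (-0.03) and a lowest adjusted p of 0.470 among members.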
